A study of Mus musculus with 11 samples.

Results

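The genes described are 10 immediate early genes, listed by symbol: Fos, Fosb, Fosl1, Jun, Junb, Egr1, Egr2, Egr3, Nr4a1 and Ier3. The list was chosen with earlier results of these data known. All 10 are among the 21677 genes with exon counts, and 9 of them are among the 18824 genes with intron counts, the missing member being Jun. The cells were C2C12, a mouse myoblast line, transduced at a multiplicity of infection of 100 with an adenovirus carrying a U6-driven short hairpin against Zc3h10 (shZc3h10) or a scrambled hairpin (scramble). Zc3h10 encodes a CCCH zinc finger protein. Confluent cells were given 300 µM of the uridine analogue 4-thiouridine (4sU) for 30 min, which enters RNA made in that time, and the labelled RNA was recovered through biotin and streptavidin. There were 5 libraries of 4sU RNA, 3 for shZc3h10 and 2 for scramble, and 6 of total RNA, 3 for each hairpin as labelled. All groups share the viral transduction, 300 µM thiouridine and confluence, and no group of uninfected cells was analysed here. The labelling time of 30 min was recorded here for the libraries of 4sU RNA only. The labels do not say that replicates came from separate cultures, so the p-values measure the spread between libraries, which may be technical.

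Immediate early genes are transcribed within minutes of a growth factor, stress or other signal, with no need for new protein, because the factors at their promoters are already present. The best known of these factors are serum response factor with its ternary complex partners, which receive the ERK signal at a CArG box, and CREB and ATF proteins at cAMP response elements. Many of the mRNAs carry AU-rich elements in the 3′ UTR and are degraded quickly, so their total level follows recent transcription closely. Fos, Fosb and Fosl1 encode FOS proteins, which pair with the JUN proteins of Jun and Junb to form the transcription factor AP-1. Egr1, Egr2 and Egr3 encode zinc finger factors, Nr4a1 encodes an orphan nuclear receptor, and Ier3 encodes a stress-responsive regulator of survival and ERK signalling.

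Promoters are shown for the 3 genes with the highest rise under shZc3h10 in 4sU RNA (Fos, Egr2, Nr4a1) and for Jun, which fell. RefSeq promoter windows (GRCm38.p6, 300 bases, read 5′ to 3′ on the gene's strand) were found for 7 of the 10 genes, all but Fosl1, Egr1 and Egr3. Capitals mark matches, on either strand, to the cAMP response element core TGACG, the AP-1 site TGANTCA, the EGR site GCGNGGGCG or the CArG box. The windows are chr12:85473640-85473939 (plus strand) for Fos, chr10:67537619-67537918 (plus) for Egr2, chr15:101266596-101266895 (plus) for Nr4a1 and chr4:95052173-95052472 (minus) for Jun.
Fos: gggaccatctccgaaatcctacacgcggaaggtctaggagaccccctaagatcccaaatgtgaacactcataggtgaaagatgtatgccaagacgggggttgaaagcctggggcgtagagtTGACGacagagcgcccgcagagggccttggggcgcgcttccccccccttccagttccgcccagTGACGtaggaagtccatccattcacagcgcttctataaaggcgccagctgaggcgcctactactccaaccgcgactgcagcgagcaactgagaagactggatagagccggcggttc
Egr2: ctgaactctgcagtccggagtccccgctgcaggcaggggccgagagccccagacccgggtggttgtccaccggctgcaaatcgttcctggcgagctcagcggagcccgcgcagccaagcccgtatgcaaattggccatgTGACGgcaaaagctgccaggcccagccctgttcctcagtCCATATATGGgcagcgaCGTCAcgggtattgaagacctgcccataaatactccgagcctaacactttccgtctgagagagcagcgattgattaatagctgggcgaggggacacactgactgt
Nr4a1: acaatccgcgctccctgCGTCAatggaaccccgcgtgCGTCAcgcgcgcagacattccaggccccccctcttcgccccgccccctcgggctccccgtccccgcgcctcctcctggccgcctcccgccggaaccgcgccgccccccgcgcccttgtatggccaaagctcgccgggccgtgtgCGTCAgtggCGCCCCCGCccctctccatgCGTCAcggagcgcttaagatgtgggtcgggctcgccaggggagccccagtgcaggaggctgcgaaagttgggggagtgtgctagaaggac
Jun: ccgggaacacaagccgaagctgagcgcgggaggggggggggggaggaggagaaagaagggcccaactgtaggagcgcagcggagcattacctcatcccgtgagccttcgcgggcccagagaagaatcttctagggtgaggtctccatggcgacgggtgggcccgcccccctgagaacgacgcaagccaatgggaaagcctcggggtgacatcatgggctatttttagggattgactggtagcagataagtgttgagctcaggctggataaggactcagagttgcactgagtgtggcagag

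Within these windows, Fos held 2 copies of TGACG, Egr2 held 2 copies and a CArG box, and Nr4a1 held 4 copies and an EGR site. Sequence beyond the listed windows was not searched. A pattern not given for a gene, such as a CArG box for Fos, may therefore lie further upstream. The Jun window held no exact match to any of the patterns. It does hold the string TGACATCA, an inexact form of the AP-1 pattern, and inexact forms were not searched for in any window. Of the promoters not printed, Fosb held 1 copy of TGACG and 1 EGR site, Junb held 1 copy of TGACG, and Ier3 held no match. Of all 32851 listed windows, 20.8% held TGACG, 7.81% held TGANTCA, 5.55% held GCGNGGGCG and 1.63% held a CArG box. The Egr2 window was taken at the listed start nearest to the start of its longest GENCODE transcript, a choice made after the search had been run at the first listed start. Of the 5 starts listed for Egr2, the first held no match, the second held only the CArG box and the other 3 held all the matches given. The Nr4a1 start lies 12577 bases from the start of its longest GENCODE transcript. A match is a string of letters and not a measured binding site.

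The 3′ UTRs were searched for AU-rich sequence because the genes are known for unstable mRNAs. In the longest protein-coding GENCODE M21 transcript, every one of the 10 genes had at least 1 copy of ATTTA, from 1 in Fosb and Fosl1 to 7 in Egr3, against 66.2% of 19171 genes with a 3′ UTR. The longer nonamer TTATTTATT occurred in Fos alone among the 10 and in 7.74% of all genes. The Fos site is shown with the nonamer in capitals.
Fos 3′ UTR site: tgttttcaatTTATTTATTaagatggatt

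The libraries of 4sU RNA had 10369374 to 19690198 exon counts each and those of total RNA 31058706 to 54075687, and introns held 67.9% to 71.7% of the counts in 4sU RNA against 10.7% to 21.9% in total RNA. Levels are given as CPM, counts relative to the library's total after scaling over all 11 libraries, for exons and introns separately. Zc3h10 itself, the check of the hairpin, had 9.76, 13.6 and 9.46 exon CPM in 4sU RNA labelled shZc3h10 and 16.3 and 15.0 in scramble, a log2 fold change of -0.49 (SE 0.19, edgeR adjusted p = 0.128). In total RNA it went against the labels, with 94.0, 157 and 95.6 CPM under the shZc3h10 label and 51.3, 66.0 and 37.6 under the scramble label (log2 1.04, SE 0.30, edgeR adjusted p = 0.0522). Its introns in total RNA passed the test against the labels (log2 1.07, SE 0.26, edgeR adjusted p = 0.0325). They had 28.015, 43.5 and 34.4 CPM under shZc3h10 and 19.1, 20.7 and 13.5 under scramble. In 4sU RNA its introns went with the labels and did not pass (log2 -0.97, SE 0.35, edgeR adjusted p = 0.0842). Averaged over both labels, its introns were 9.65-fold lower in 4sU RNA than in total RNA. The names of the deposited files of all 6 total RNA libraries carry the other hairpin than their labels do. Directions in total RNA are therefore given for the libraries labelled with a hairpin, and an exchange of those labels would turn their sign. The myoblast genes Myod1, Myf5, Pax7, Ncam1, Itga7, Cdh15 and Des were all detected. The endothelial markers Pecam1, Cdh5, Kdr and Tek, the adipocyte markers Adipoq, Plin1, Cidec and Fabp4 and the leukocyte marker Ptprc were all below 1 CPM in exons, and the macrophage-associated Csf1r and Cd68 reached 3.29 and 19.8 exon CPM. In introns, where CPM is relative to the intron total, all 11 of these markers exceeded 1 CPM in at least 1 library, up to 12.5 CPM for Pecam1, and their part in the results was not tested.

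In newly made RNA, 5 immediate early genes rose and 2 fell in cells labelled shZc3h10. Egr2, Fos, Nr4a1, Egr3 and Egr1 rose by 1.46-fold to 2.51-fold, and Jun and Fosl1 fell, with log2 fold changes of -0.76 and -0.57. Fosb, Junb and Ier3 did not pass the test. The median log2 fold change of the 10 genes was 0.55, against -0.00 over all 13637 genes tested. Of all genes tested, 10.4% passed (5.66% higher and 4.69% lower), by edgeR's quasi-likelihood test at a Benjamini-Hochberg adjusted p below 0.05. When all 11 libraries shared 1 estimate of the spread, Egr2 alone of the 10 passed, and 296 genes passed in place of 1412; the directions of the 10 genes did not change.

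**Figure D1:**
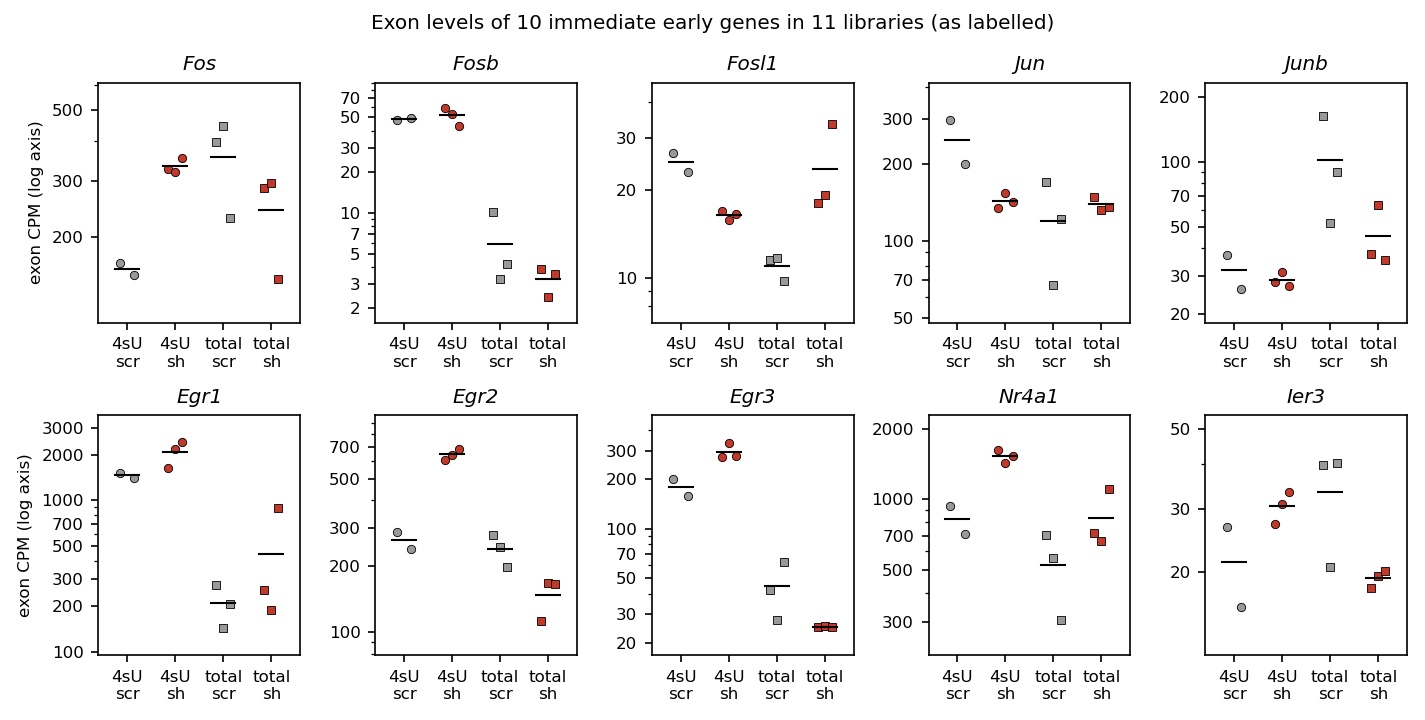
Exon level of each of the 10 genes (CPM, log axis with its own range in each panel) in 11 libraries: 4sU RNA (circles) and total RNA (squares), labelled scramble (scr, grey) or shZc3h10 (sh, red). Each point is a library and each line a group mean. In 4sU RNA the red points of Fos and Egr2 sit well above the grey ones, with Fos at 319 to 353 against 152 and 165 CPM.

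Among the AP-1 genes, Fos, the prototype of the family, rose, and its relatives did not move with it. Fos had 327, 319 and 353 exon CPM in the 3 libraries of 4sU RNA labelled shZc3h10 and 165 and 152 in the 2 labelled scramble. Every shZc3h10 library was thus above every scramble library, and the log2 fold change was 1.11 (SE 0.14, edgeR adjusted p = 1.3e-05). Fosb, which encodes a FOS protein with a longer-lived splice form, had 59.1, 53.0 and 43.2 CPM against 47.5 and 49.3, so that the groups overlapped (log2 0.13, edgeR adjusted p = 0.702).

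Fosl1, which encodes FRA-1, a FOS protein that lacks a transactivation domain, had 16.9, 15.7 and 16.5 CPM in shZc3h10 and 26.7 and 23.0 in scramble. All 3 shZc3h10 libraries were lower (log2 -0.57, SE 0.16, edgeR adjusted p = 0.0260), but the gene passed the test in only 1 of 5 fits that each left out a library. Its highest adjusted p in edgeR, 0.271, came without scramble library 1.

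Jun, which encodes the main dimer partner of FOS, had 134, 153 and 141 CPM in shZc3h10 and 296 and 200 in scramble. The groups did not overlap, and the scramble libraries differed from each other more than the shZc3h10 libraries did (log2 -0.76, SE 0.15, edgeR adjusted p = 0.00228). Without scramble library 1, the higher of the pair, the log2 fold change was -0.46 and the edgeR adjusted p was 0.159, the only 1 of the 5 fits in which Jun did not pass. Junb, whose product can oppose JUN at some promoters, had 28.1, 31.3 and 26.9 CPM against 37.4 and 26.0 (log2 -0.11, edgeR adjusted p = 0.771).

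The EGR genes and Nr4a1 all rose. Egr2 had 611, 645 and 686 CPM in shZc3h10 and 287 and 240 in scramble, the highest fold change of the 10 (log2 1.33, SE 0.14, edgeR adjusted p = 2.35e-06). Nr4a1 had 1620, 1432 and 1536 CPM against 938 and 710 (log2 0.92, SE 0.15, edgeR adjusted p = 2.07e-04). Egr3 had 275, 334 and 278 CPM against 200 and 158 (log2 0.76, SE 0.15, edgeR adjusted p = 0.00179). In each of these 3 genes no shZc3h10 library reached down to the scramble libraries, and each passed in all 5 fits that left out a library, as did Fos.

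Egr1, the most studied EGR factor and the most abundant of the 10 per kb of transcript in scramble 4sU RNA, had 1636, 2187 and 2446 CPM in shZc3h10 and 1523 and 1415 in scramble. The lowest shZc3h10 library was close to the higher scramble library (log2 0.54, SE 0.16, edgeR adjusted p = 0.0311), and Egr1 passed in 2 of the 5 fits that left out a library. Ier3 had 27.3, 31.0 and 33.5 CPM against 26.6 and 15.97, a log2 difference of 0.55 (SE 0.19) that did not pass in edgeR (adjusted p = 0.0728). Of the 10 genes, 8 had groups that did not overlap, Ier3 included, against 37.9% of all genes tested. In bulk RNA, fewer cells with a transcript and less of it per cell cannot be told apart.

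Introns were read as unspliced RNA, and only Fosb, Fosl1, Egr2 and Nr4a1 had at least 100 intron counts in every 4sU library. Junb has 1 exon in its longest GENCODE transcript, as Jun does, so its intron counts cannot be read as unspliced Junb RNA. Of the 8 genes tested, Egr2 and Nr4a1 rose and Fosl1 fell, the same directions as in exons, against 15.5% of 13553 genes called (8.95% higher, 6.57% lower). With library totals alone as the scaling, 1013 genes were higher and 1277 lower in place of 1213 and 890, and the same 3 of the 8 passed. Egr2 introns had 12.3, 10.97 and 11.99 CPM in shZc3h10 and 3.16 and 6.19 in scramble (log2 1.39, SE 0.27, edgeR adjusted p = 0.00338). Nr4a1 introns had 33.8, 34.5 and 40.5 CPM against 21.4 and 20.8 (log2 0.83, SE 0.13, edgeR adjusted p = 9.23e-04). Fosl1 introns had 59.4, 55.3 and 57.4 CPM against 81.2 and 98.3 (log2 -0.60, SE 0.11, edgeR adjusted p = 0.00210).

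Each of these 3 genes passed in all 5 fits that left out a library. They and Egr1 were the 4 of 8 genes whose groups did not overlap in introns, against 45.9% of all genes tested. Fosb introns had 6.72, 5.35 and 6.12 CPM against 6.25 and 6.39, with overlapping groups (log2 -0.02, edgeR adjusted p = 0.973). The other 4 genes tested did not pass, at 6 to 83 intron counts per 4sU library, which limits what could be detected. The difference between the hairpin effect on exons and on introns did not pass for any of 9 genes with both, nor for any of 13022 genes, of which 389 had an unadjusted p below 0.05 in edgeR. A fit of the 5 libraries of 4sU RNA alone, added after the data were seen, called 17 of 11812 genes and again none of the 9. For Fos this difference was 0.83 on the log2 scale (SE 0.44, unadjusted p = 0.0746 in edgeR). An approximate 95% interval, taken from the normal distribution and not from the test, ran from -0.03 to 1.68.

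In total RNA none of the 10 genes passed the test between labels, where 6.42% of 13846 genes did (3.06% higher, 3.36% lower). At an unadjusted p below 0.05, 6 of the 10 passed in edgeR, where 26.9% of all genes did. DESeq2 called 4 of the 10 and 13.6% of all genes. The median log2 fold change of the 10 genes was -0.75, against -0.10 over all genes. With library totals alone as the scaling, the median of all genes moved by -0.35, 159 genes were higher and 851 lower in place of 424 and 465, and Junb, Egr2, Egr3 and Ier3 were called lower. Replicates differed more in total RNA than in 4sU RNA: the SE of the 10 genes' log2 fold changes ran from 0.29 to 0.50, against 0.14 to 0.19.

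Fos had 284, 295 and 147 exon CPM in total RNA under the shZc3h10 label and 397, 446 and 229 under the scramble label, with overlapping groups (log2 -0.70, SE 0.35, edgeR adjusted p = 0.208). Egr2 had 112, 168 and 166 CPM against 277, 244 and 199, with no overlap (log2 -0.81, SE 0.29, edgeR adjusted p = 0.101). Egr3 had 25.1, 25.4 and 24.9 CPM against 42.2, 27.7 and 62.9 (log2 -0.93, SE 0.30, edgeR adjusted p = 0.0681). The 3 libraries labelled shZc3h10 had almost the same Egr3 level, and the spread lay in those labelled scramble.

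Ier3 followed a like order, with 18.01, 19.4 and 20.1 CPM against 39.6, 20.6 and 40.2 (log2 -0.92, SE 0.29, edgeR adjusted p = 0.0689). Fosl1 had the opposite order, with 17.96, 19.1 and 33.6 CPM against 11.5, 11.6 and 9.70 (log2 1.00, SE 0.31, edgeR adjusted p = 0.0625). Egr2, Egr3, Ier3 and Fosl1 were the 4 of 10 genes whose groups did not overlap, against 29% of all genes tested. Junb had 37.9, 63.2 and 35.3 CPM against 163, 52.4 and 89.9, with overlap (log2 -1.31, SE 0.38, edgeR adjusted p = 0.0542).

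The other 4 genes also overlapped in total RNA. Fosb had 3.87, 2.38 and 3.56 CPM against 10.2, 3.28 and 4.22 (log2 -0.99, and -0.26 without total scramble library 1), and Jun had 149, 132 and 136 against 170, 67.1 and 122 (log2 0.09). Nr4a1 had 718, 667 and 1107 CPM against 707, 563 and 306 (log2 0.54). Egr1 had 256, 188 and 887 CPM against 276, 142 and 207, and its log2 difference of 1.00 rested on library 3 of those labelled shZc3h10: without it the value was 0.02. Without total scramble library 2, Fosb, Fosl1, Junb, Egr3 and Ier3 passed in edgeR (adjusted p from 0.00613 to 0.0355), with the same signs, where 2588 of all genes passed (18.4%) in place of 889.

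In the introns of total RNA none of the 8 genes tested passed, where 5.18% of 13877 genes did (3.08% higher, 2.1% lower), and 1 of the 8 had an unadjusted p below 0.05 in edgeR. That gene was Egr2, with 3.15, 3.46 and 4.15 intron CPM under the shZc3h10 label and 11.5, 6.96 and 6.66 under the scramble label (log2 -1.15, SE 0.40, edgeR adjusted p = 0.123). It was also the 1 of the 8 whose groups did not overlap, against 23.5% of all genes tested. Its exons and introns were thus both lower in total RNA labelled shZc3h10 and both higher in 4sU RNA labelled shZc3h10.

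**Figure D2:**
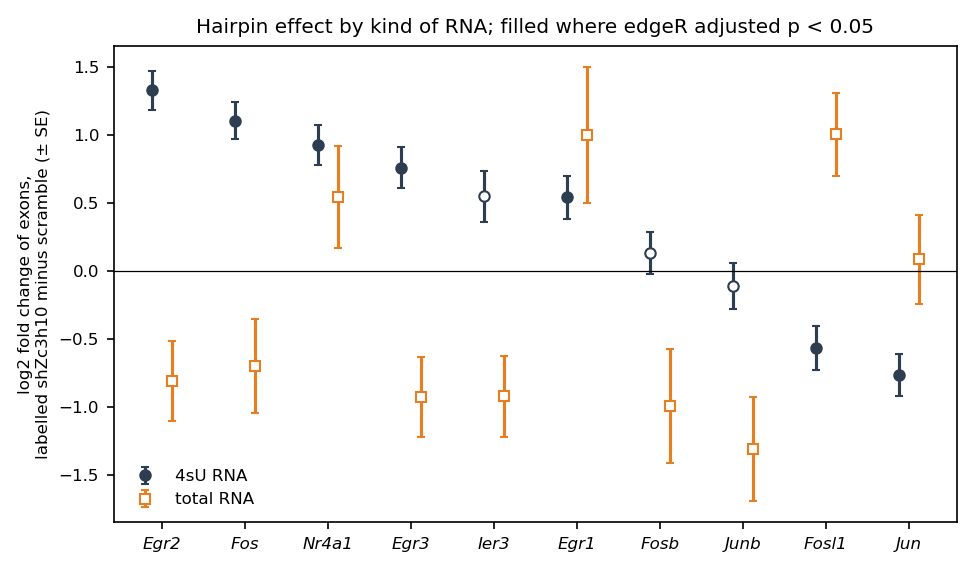
Log2 fold change of exon counts, labelled shZc3h10 minus labelled scramble, with its SE, for each gene in 4sU RNA (circles) and total RNA (squares), ordered by the value in 4sU RNA. Filled symbols passed edgeR's test. Egr2 and Fos are at 1.33 and 1.11 in 4sU RNA and at -0.81 and -0.70 in total RNA.

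As labelled, the hairpin difference in 5 genes was not the same in both kinds of RNA. The test of the difference itself, 4sU minus total as labelled, passed for Egr2 (log2 1.99, SE 0.34, edgeR adjusted p = 8.72e-04), Fos (1.64), Egr3 (1.54) and Ier3 (1.32), which were higher, and for Fosl1 (-1.71), which was lower. Of 15046 genes tested, 14.1% passed (5.55% higher, 8.56% lower). With library totals alone, the median of all genes moved by 0.49, 1565 genes were higher and 515 lower in place of 835 and 1288, and again 4 of the 10 were higher and 1 lower. Egr2 and Fosl1 passed in all 11 fits that left out a library, Egr3 in 10, Fos in 9 and Ier3 in 4. Zc3h10 itself had a value of -1.68 in the same contrast.

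The size of this contrast, and its direction for Fosl1, Egr3 and Ier3, rest on the total RNA labels. With those labels exchanged between the hairpins, as the file names have it, none of the 10 genes and none of 15046 genes (0%) passed in edgeR. At an unadjusted p below 0.05 there were 1707 genes (11.3%), among them Junb, Egr1 and Nr4a1, and DESeq2 called 78 genes, of the 10 only Nr4a1. Egr2 was then at 0.61 (SE 0.34, edgeR adjusted p = 0.492), Fos at 0.51, Fosl1 at 0.51, Egr3 at -0.09 and Ier3 at -0.29. This exchange was added after the data were seen. Which labels are right was not settled by the sources used here.

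Set against total RNA, 4sU RNA held more of most immediate early transcripts. Averaged over both labels, 6 genes were higher in 4sU RNA (Fosb, Egr3, Egr1, Egr2, Nr4a1 and Jun), Junb was lower, and Fos, Fosl1 and Ier3 did not pass. The median log2 difference of the 10 genes was 0.66, against -0.01 over all genes, of which 71% passed (35.1% higher, 35.9% lower). With library totals alone as the scaling, the median of all genes moved by 0.78, 8268 genes were higher and 2744 lower in place of 5275 and 5402, and 8 of the 10 were higher and none lower, so the directions given are relative to the median gene. An average over both labels does not depend on which total RNA library carries which label.

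Fosb differed most, at 43.2 to 59.1 CPM in the 5 libraries of 4sU RNA and 2.38 to 10.2 CPM in the 6 of total RNA (11.3-fold, log2 3.50, SE 0.26, edgeR adjusted p = 2.48e-09). Egr3 was 6.89-fold higher (log2 2.78, SE 0.19) and Egr1 5.76-fold higher (log2 2.53, SE 0.32). These were the 3 of 10 genes in which the kinds of RNA did not overlap, against 48% of all genes. Egr2 (log2 1.13, SE 0.17), Nr4a1 (0.77, SE 0.21) and Jun (0.55, SE 0.20) were higher with overlapping libraries, and Jun did not pass without 4sU scramble library 1 or 4sU shZc3h10 library 2 (edgeR adjusted p = 0.196 and 0.0575).

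Junb was the exception, at 26.0 to 37.4 CPM in 4sU RNA and 35.3 to 163 CPM in total RNA (log2 -1.17, SE 0.25, edgeR adjusted p = 4.33e-04). Fos was at -0.36 (SE 0.21, edgeR adjusted p = 0.133), Fosl1 at 0.33 (0.110) and Ier3 at 0.01 (0.965). These 3 means average over labels that differed. Fos was at -1.17 in libraries labelled scramble (edgeR adjusted p = 0.0103) and at 0.47 in those labelled shZc3h10 (0.113). Ier3 was at -0.64 and 0.68, and Fosl1 at 1.20 and -0.53. Egr2 was at 0.15 in libraries labelled scramble and at 2.13 in those labelled shZc3h10. Fosb, Egr1 and Egr3 were higher by 2.03 or more on the log2 scale under each label.

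The order of the genes by level per kb of transcript therefore differed between kinds of RNA. In scramble 4sU RNA it ran from Egr1 (328 CPM per kb) and Nr4a1 (323) through Egr2 (88.9), Jun (77.8), Fos (75.1) and Egr3 (45.4) to Ier3 (18.8), Junb (17.5), Fosl1 (13.3) and Fosb (12.8). In total RNA labelled scramble it ran from Nr4a1 (206 CPM per kb) and Fos (170) through Egr2 (80.8), Junb (56.2), Egr1 (46.4), Jun (37.5) and Ier3 (29.6) to Egr3 (11.2), Fosl1 (5.86) and Fosb (1.56). Under the shZc3h10 label, total RNA began with Nr4a1 (325), Fos (115), Egr1 (98.9), Egr2 (50.1), Jun (43.5) and Junb (25.1). The order in total RNA thus depends in part on the label. Neighbours at similar values, such as Egr1 and Nr4a1 in 4sU RNA, were not tested against each other.

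Recovery of 4sU RNA needs a labelled uridine, so the number of T in the longest transcript is given. Fosb, Egr3 and Egr1, the 3 genes highest in 4sU RNA against total RNA, have 933, 1005 and 971 T. Junb, Ier3 and Fosl1 have 313, 280 and 339 and Fos has 513. Egr2, Nr4a1 and Jun, also higher in 4sU RNA, have 749, 586 and 650. These numbers go with transcript length, at 3782, 3940 and 4484 nt in Fosb, Egr3 and Egr1. Junb, Ier3 and Fosl1 have 1809, 1131 and 1864 nt. The median number of T over all genes with a transcript is 702. The part of uridine content or transcript length in the result was not tested.

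**Figure D3:**
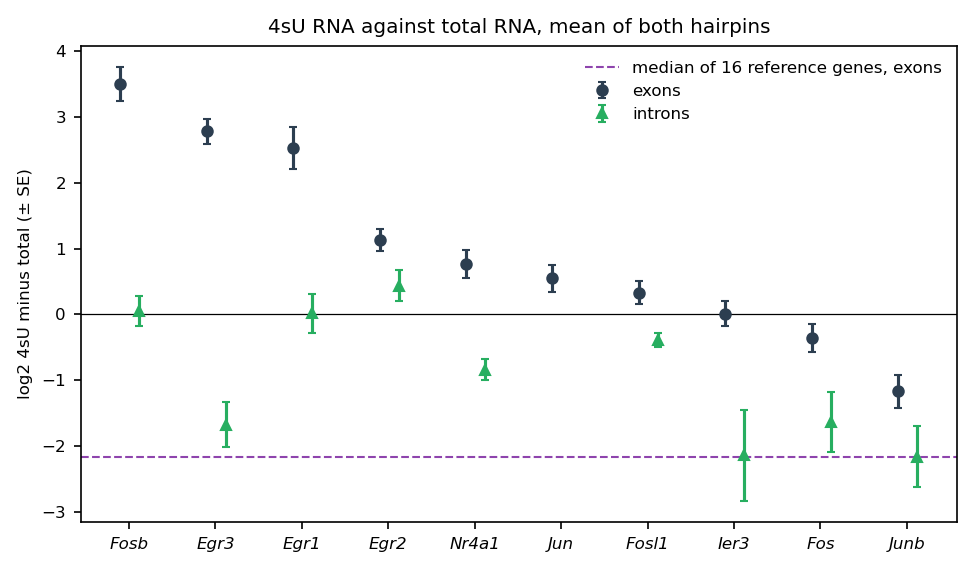
Log2 difference between 4sU RNA and total RNA (mean of both labels, with SE) for exons (circles) and introns (triangles) of each gene, ordered by the exon value; Jun has no intron counts. The dashed line is the exon median of 16 reference genes with stable mRNA, -2.17. Exons of Fosb, Egr3 and Egr1 are highest, at 3.50, 2.78 and 2.53.

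Over all genes, 35.1% were higher in 4sU RNA and 35.9% lower. Genes fixed as references for stable mRNA lay on the other side from most of the immediate early genes. Of 16, 14 were lower in 4sU RNA, among them the translation factor gene Eef1a1 (log2 -3.49), the cyclophilin gene Ppia (-3.21) and the tubulin gene Tuba1b (-2.94). Polr2a, which encodes the large subunit of RNA polymerase II, was the only one higher (log2 3.84), and the list's median was -2.17. Other rapidly induced genes had a median of 0.95, with 20 of 26 higher and none lower, led by Ptgs2 (2.27), Myc (2.05) and Tnfaip3 (1.94). Of the other AP-1 genes tested, 6 of 10 were higher and 2 lower, and of the other EGR, NR4A and NAB genes 2 of 4 were higher and 1 lower, with Nr4a3, the relative of Nr4a1, at 3.77.

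The introns showed a different order. Of 9 genes tested, none was higher in 4sU RNA and 6 were lower, where 77.4% of 15320 genes passed (34.5% higher, 42.8% lower) and the median of all genes was -0.22. With library totals alone that median moved by -0.53, and 2942 genes were higher and 8846 lower in place of 5291 and 6560; none of the 9 was higher and 6 were lower. In Fos, Junb and Egr3, at 6 to 52 intron counts per library, no 4sU library reached the total RNA libraries, which makes 3 of 9 genes with no overlap against 51.2% of all genes. Junb is among the 9 throughout, although its longest transcript has 1 exon. Of the 4 genes with at least 100 intron counts in each 4sU library, Nr4a1 (log2 -0.84, SE 0.16) and Fosl1 (-0.39, SE 0.11) were lower and Egr2 (0.43, SE 0.24) and Fosb (0.05, SE 0.23) did not pass. Exons and introns were here each scaled to their own totals. The difference between kinds of RNA was then greater in exons than in introns for all 9 genes. It ran from 0.97 in Egr2 to 4.71 in Egr3 on the log2 scale, with a median of 1.88. Of 13022 genes, 40.1% passed in that direction and 31.6% in the other, and the median of all was 0.22. All endothelial, macrophage and adipocyte markers tested passed in the same direction. The medians were 2.72 for 3 endothelial and 2.79 for 3 macrophage genes. Pecam1 introns averaged 7.51 CPM in total RNA labelled scramble and 0.879 CPM in scramble 4sU RNA. In that total RNA, introns of Fos, Junb, Egr1, Egr3 and Ier3 averaged 1.19 to 3.89 CPM. The part of an intron background was not tested.

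For most of the 9 immediate early genes the direction depends on the scaling of exons and introns to their own totals. The unscaled ratio of exon to intron counts, which also carries the larger intron share of 4sU libraries, had a lower median in 4sU RNA for 6 of the 9 genes and a higher one for Fosb, Egr1 and Egr3. Exon counts per intron count of Fosb were 4.92 to 6.38 with 4sU and 1.61 to 6.94 in total RNA. Fosl1, whose introns outnumber its exons, had ratios of 0.176 to 0.249 with 4sU and 0.401 to 1.15 in total RNA. Egr2 had ratios of 29.2 to 68.9 with 4sU and 100.1 to 219 in total RNA. In Fosl1 the ratios of the 2 kinds of RNA did not overlap, and the same held for Egr2. Counts were taken as deposited, and without a stated use of strand, reads from antisense or overlapping transcripts cannot be told apart from these.

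Related genes did not rise with Fos, Egr2 and Nr4a1 as a body in 4sU RNA. Of all 13637 genes tested there, 10.4% passed, 5.66% as higher and 4.69% as lower. Of 9 other AP-1 genes tested, none was higher and 2 were lower under shZc3h10: Jund (log2 -1.43, SE 0.33), the third JUN gene, and Atf3 (-1.37, SE 0.14), a stress-induced partner. Of 4 other EGR, NR4A and NAB genes, Nr4a2 was lower (-0.65, SE 0.20) and the others did not pass. Of 26 other rapidly induced genes, 4 were higher and 6 lower, with Arc (1.05), Zfp36 (0.62) and Ctgf (0.59) the highest and Klf2 (-1.16), Rhob (-0.90) and Klf4 (-0.83) the lowest. Zfp36 encodes tristetraprolin, which binds AU-rich elements and promotes decay.

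The signalling lists were mixed as well, to be set against 5.66% higher and 4.69% lower over all genes. Of 17 inhibitors of ERK or other MAP kinase signalling, Spry1 (0.95), Il17rd (0.90) and Errfi1 (0.60) were higher. The dual-specificity phosphatase genes Dusp1 (-1.12), Dusp8 (-0.98), Dusp4 (-0.63) and Dusp10 were lower, and these phosphatases are not all specific to ERK. Of 25 genes of the MAP kinase cascade, the receptor genes Pdgfra (1.15), Egfr (0.97) and Pdgfrb (0.76) were higher and the kinase genes Rps6ka2 (-0.64) and Rps6ka4 (-0.59) were lower. None of 10 genes for serum response factor and its cofactors passed, with values between -0.20 and 0.51. Of 14 cytoskeletal targets of serum response factor, 6 were higher and none lower, led by the smooth muscle genes Cnn1 (1.73), Tagln (1.17) and Myl9 (1.08).

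Of 25 genes for AU-rich element binding and mRNA decay, Zfp36l1 (0.63), a relative of Zfp36, was higher and none was lower. Over all genes, 5.66% were higher and 4.69% lower. None of the 16 reference genes passed in either direction. Of 7 myoblast markers, Itga7 (-1.11), Cdh15 (-0.93) and Des (-0.67) were lower, and none of 5 markers of differentiated muscle passed. These 3 myoblast genes were lower in the libraries in which 5 of the immediate early genes were higher, and their part in the result was not tested. In total RNA as labelled, their mean exon levels went the other way. Itga7 had 1549 CPM under the shZc3h10 label and 640 under the scramble label, Cdh15 had 274 and 145, and Des had 1980 and 982. Of the 7 myoblast markers, 1 passed as higher there and none as lower, against 3.06% and 3.36% of all genes. An exchange of the total RNA labels would turn these directions.

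**Figure D4:**
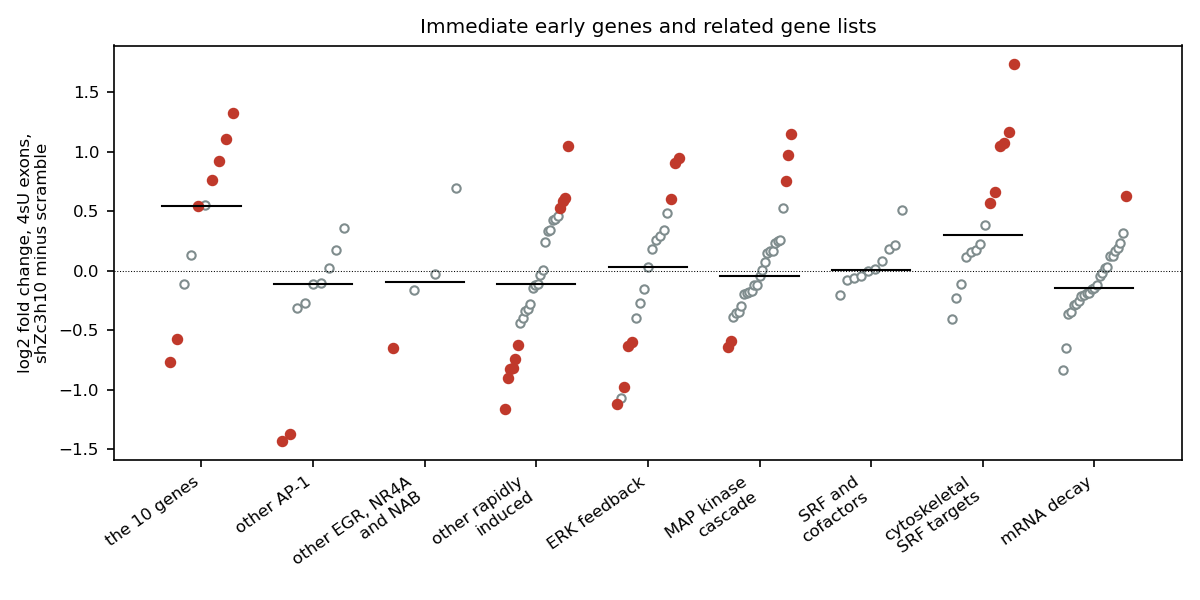
Log2 fold change in 4sU exons, shZc3h10 minus scramble, of the 10 immediate early genes and of 8 related gene lists. Each point is a gene, filled red where it passed edgeR's test, and each line is the list's median. The 10 genes have a median of 0.55, and no other list plotted has a higher one; the cytoskeletal targets come next at 0.30.

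Across libraries the 10 genes did not vary as a unit. After the mean of each kind of RNA was removed, Pearson's r of log2 levels over the 11 libraries ran from -0.74 between Fosl1 and Egr3 to 0.92 between Egr3 and Ier3, with Fos and Egr2 at 0.76 and Fos and Fosl1 at -0.73. Outside the 10, the genes most like their mean profile included Ctgf (r = 0.89), AA415398 (0.88), Fam109b (0.86) and Polr2i (0.84). These are descriptions over 11 libraries that share groups and scaling.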

How the data were processed

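Counts per gene over exons and over introns were taken as the authors deposited them, as raw counts in 22 files for 11 libraries; reads were aligned to mm9 with TopHat2 2.0.8, per the submitters' processing notes. Which program and annotation counted them, and whether strand was used, is not given in the sources used here. Libraries were made from random-primed cDNA cut with Tn5, per the labels' protocols. Groups follow the labels. Scaling used edgeR's trimmed mean of M values, and tests its quasi-likelihood F (edgeR 4.0.16, R 4.3.3), after filterByExpr (minimum count 10, minimum total 15), with Benjamini-Hochberg adjustment over all genes and calls below 0.05. Hairpin effects were fitted within a kind of RNA; contrasts between kinds used all 11 libraries; exons were compared with introns by a fit with a term for each library. SE is the fold change over the root of F. DESeq2 1.42.0 was an alternative. Correlations used log2 of CPM plus 1. All 10 genes are named; of other lists, up to 3 called genes each way, plus single further ones chosen after their values were seen. Of the 5 genes most like the mean profile, 1 is not reported here. The genes and lists were chosen with earlier results of these data known. The script was tested on simulated data. Transcripts are from GENCODE M21 and promoters from RefSeq (GRCm38.p6).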

Additional observations from a re-analysis of the deposited data

Results flagged for a closer look

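In 5 of the 10 genes the hairpin difference in exons differed between 4sU RNA and total RNA by a test of that difference (edgeR, 11 libraries, total RNA as labelled). Egr2 had a difference of 1.99 (edgeR adjusted p = 8.72e-04), Fos of 1.64 (0.0147), Egr3 of 1.54 (0.0112), Ier3 of 1.32 (0.0313) and Fosl1 of -1.71 (0.00389), all on the log2 scale. Without library 3 labelled shZc3h10 of each kind, a choice made after the data were seen, Ier3 was at 1.29 and did not pass (edgeR adjusted p = 0.0725), and the other 4 did. With the labels of the total RNA libraries exchanged, where Zc3h10 went against them, none of the 5 passed in edgeR: Egr2 was at 0.61 (adjusted p = 0.492), Fos at 0.51 (0.646), Fosl1 at 0.51 (0.592), Egr3 at -0.09 (0.948) and Ier3 at -0.29 (0.799).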

How the results depend on the processing

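With the spread shared by all 11 libraries, the 4sU exon comparison called 296 genes and 1 of the 10, the 4sU introns 817 genes, total exons 2711 and 5 of the 10, and total introns 1628 and 1 of the 10. DESeq2 called 1877 genes and 4 of the 10 in total exons and 1260 genes in total introns, its size factors in edgeR called 1 of the 10 in total exons, and no filter on low counts gave 1591 genes and 4 of the 10 there. Library totals alone, added after the data were seen, called 4 of the 10 in total exons and put Jun at -0.28. The fit of 4sU libraries alone for exons against introns, also added, called 17 genes. Deviations of same-numbered libraries correlated over 0.1 in 4 of 15 pairs in exons (r from -0.22 to 0.34, highest between 4sU and total scramble 2) and 6 of 15 in introns (-0.48 to 0.37), not in every pair, so the numbers were not taken as pairs. With a replicate block, 4sU exons gave 809 genes, total exons 100 and total introns 217, and Fosl1 (edgeR adjusted p = 0.141) and Egr1 (0.357) no longer passed in 4sU exons, nor did Ier3 (0.0508) in the difference of hairpin effects. The block left 10486 genes and 7 of the 10 called in 4sU minus total exons and 11631 and 6 in introns. With the total RNA labels exchanged, also added, that difference called 0 genes in edgeR and 0 of the 10 (1707 and 3 at an unadjusted p below 0.05, 78 genes and 1 in DESeq2), and turned for Fosl1 (0.51), Egr3 (-0.0920) and Ier3 (-0.29).

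Directions turned in 4sU minus total for Ier3 exons (-0.0104 with DESeq2, -0.0103 with its size factors, -0.64 in libraries labelled scramble), Fos exons (0.42 with library totals, 0.47 in those labelled shZc3h10), Fosl1 (exons -0.53 in those labelled shZc3h10, introns 0.0525 in those labelled scramble), Egr2 introns (-0.10 with library totals, -0.86 in those labelled scramble) and Fosb introns (-0.00278 with DESeq2, -0.000842 with its size factors, -0.48 with library totals, -0.28 in those labelled shZc3h10). The cause was not tested.

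Leaving out each library gave 724 (without 4sU scramble 1) to 1734 genes in 4sU exons, 935 (without 4sU scramble 1) to 2586 in 4sU introns, 161 (without total scramble 3) to 2588 (without total scramble 2) in total exons with 0 to 5 of the 10, 217 (without total scramble 1) to 1048 in total introns, and 1029 (without 4sU scramble 1) to 3246 (without total scramble 2) in the difference of hairpin effects, with 2 (without 4sU scramble 2) to 7 of the 10. Signs turned over these fits for Junb in 4sU exons (-0.32 to 0.17), Fosb in 4sU introns (-0.0761 to 0.0333), Jun in total exons (-0.14 to 0.50), and, in 4sU minus total, Ier3 exons (-0.21 to 0.16) and Fosb introns (-0.0415 to 0.185). Of 781 values of single genes over all alternatives, 680 kept direction and side of the threshold, 38 no longer passed, 37 newly passed and 26 changed sign. Groups of 2 or 3 libraries, and under 100 intron counts for 5 of the 9 genes, limit what could be detected.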
